A study of Homo sapiens with 29 samples.

Results

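The genes described here form a module for DNA replication and cell division, listed by symbol and kept where the mean over the 29 libraries, in CPM (counts scaled to library size), was at least 1. Of 49 listed genes, 47 passed: 14 that copy DNA or supply its building blocks, 7 that regulate the step from G1 into S phase and 26 that act in mitosis. They belong to 16657 entries at that level among 66025 in the count table, and the limit was set on mean level, not on a difference between groups, while the list itself was drawn up with earlier results of these data known. The 2 that did not pass were the D-type cyclin genes CCND1, with 26 counts over 12 libraries (mean 0.0283 CPM), and CCND2, with 13 counts over 8 libraries (mean 0.0134 CPM). The gene just inside the limit was CDK6, at 1.43 CPM, followed by TK1 at 14.3 CPM.

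RNA came from EndoC-βH1, a human β-cell line made from fetal pancreas with a viral large T antigen and telomerase, kept for 10 days in medium that HEK293 human embryonic kidney cells had conditioned for 3 hours. The HEK293 cells stably overexpressed an empty vector (EV), wild-type CEL (WT) or mutant CEL (MUT), where CEL is carboxyl ester lipase, a digestive enzyme of acinar cells whose mutations cause the inherited diabetes MODY8. All media were filtered, brought to equal protein and changed daily. Which CEL mutation it was is not given here. There are 9 EV, 10 WT and 10 MUT libraries in 3 labelled batches. Batch 1 has 4 each of WT and MUT and 3 of EV, and the other batches have 3 of each. No group in unconditioned medium was analysed here. The labels do not say whether libraries of 1 batch and medium came from separate cultures or HEK293 harvests, so p-values measure only the spread between these libraries.

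A dividing cell passes from G1 through S phase, where DNA is copied, to G2 and mitosis. At the G1/S step, cyclin D with CDK4 or CDK6 and cyclin E with CDK2 inactivate the RB family of pocket proteins, and E2F transcription factors then switch on genes for origin licensing, the replication fork and nucleotide supply. Mitotic genes peak later, in G2 and M, through MYBL2 with the MuvB complex and FOXM1, often at a promoter element called CHR, and the DREAM complex of pocket proteins represses both sets in resting cells. Adult β-cells divide rarely, while EndoC-βH1 cycles under large T antigen, which binds the pocket proteins.

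Library totals ran from 26.2 to 40.2 M estimated counts. All 18 β-cell markers examined were present, with INS between 8565 and 19528 CPM. Of 5 HEK293 markers only NEFM averaged at least 1 CPM, while PAX2, HOXA9, HOXA10 and HOXC10 averaged at most 0.0235 CPM. Of 6 acinar markers only CPA1 did, with PNLIP and AMY2A at 0, of 6 mesenchymal markers only COL1A1, and of 5 duct markers KRT19 and MUC1. In bulk RNA, fewer cells in a phase and less of each message per cell cannot be told apart.

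Scaled by exonic length and averaged over all libraries, the sliding clamp gene PCNA was the most abundant member, at 194 CPM per kb. The helicase gene MCM7 followed at 99.8 CPM per kb and the transcription factor gene E2F1 at 82.2 CPM per kb. Among mitotic genes STMN1, which encodes a microtubule regulator, was highest, at 78.8 CPM per kb, and CENPE, a kinetochore motor gene, was lowest, at 3.67 CPM per kb. CDK6 stood at 0.117 CPM per kb against 49.6 for its relative CDK4. The ranges over libraries overlapped for most neighbours in this order, and those of MCM7 (67.8 to 118 CPM per kb) and E2F1 (44.4 to 110 CPM per kb) did so widely.

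Batch 2 parted the module by medium. There, replication genes were low in both CEL media, while mitotic genes were low in WT medium and in MUT medium divided into some above, some at and some below the EV level, with a sum near that of EV. The 14 replication genes together stood at 2889.5 ± 44.1 CPM (mean ± SD, n = 3) in EV, 1759 ± 22.8 in WT and 1777 ± 12.3 in MUT, so that WT held 60.9% and MUT 61.5% of the EV sum. The 26 mitotic genes stood at 2117 ± 73.2 CPM for EV, 1315 ± 24.6 for WT and 2150.3 ± 36.5 for MUT, which is 62.1% and 102% of EV. The 7 G1/S regulators went with the replication genes, at 68.5% of EV in WT and 69.3% in MUT. The ratio of mitotic to replication CPM was therefore 1.20 to 1.23 in the 3 MUT libraries, against 0.714 to 0.742 in EV and 0.733 to 0.763 in WT. EV and WT overlapped in this ratio at different levels, and MUT lay above both. No test is given for these sums, since the members were chosen with results of these data known.

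**Figure D1:**
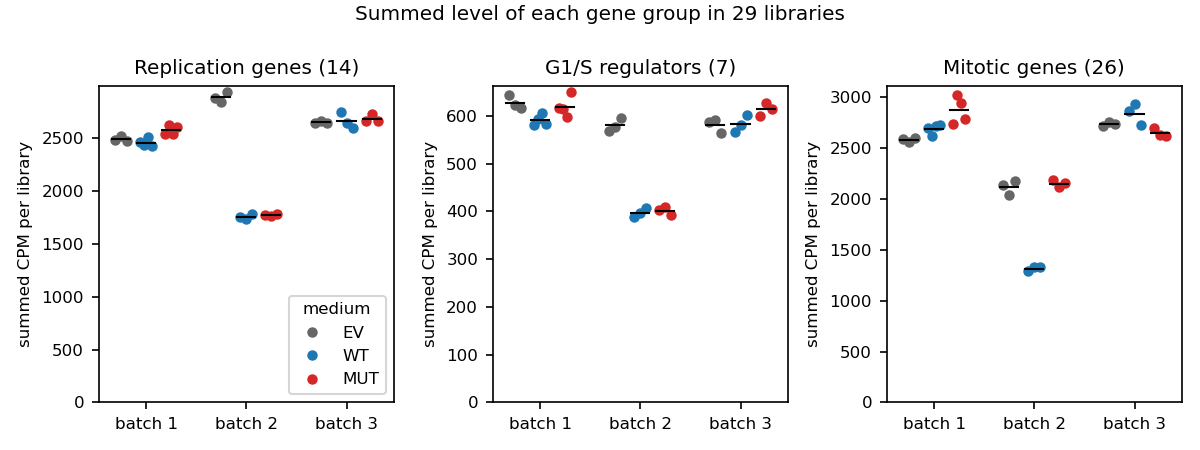
Summed CPM of the 14 replication genes, 7 G1/S regulators and 26 mitotic genes (vertical axes, from 0) in each of the 29 libraries, by batch and medium; points are libraries and bars are means. Only in batch 2 do media lie far apart: WT and MUT libraries hold 60.9% and 61.5% of the EV replication sum, while for mitotic genes only WT lies below EV.

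Gene by gene in batch 2, edgeR's quasi-likelihood test called all 47 members changed in WT against EV, where 38.9% of 20575 genes were called (19.6% higher and 19.3% lower): 46 fell, and CDK6 rose. In MUT against EV 39 of 47 were called, where 47.8% of all genes were (24.1% higher and 23.8% lower): all 14 replication genes and 6 of 7 G1/S regulators fell, while of 26 mitotic genes 12 rose, 7 fell and 7 did not pass. In MUT against WT 34 were called, where 33.1% of all genes were (16.8% higher and 16.4% lower): 25 of 26 mitotic genes were higher in MUT, and replication genes divided into 3 higher, 3 lower and 8 not called. WT vs EV and MUT vs EV use the same 3 EV libraries. The median log2 fold change of the replication genes was -0.70 in WT and -0.75 in MUT against EV, and that of the mitotic genes -0.78 and 0.04, beside -0.00677 and -0.00126 over all genes tested. In every one of the 26 mitotic genes all 3 WT libraries lay below all 3 EV libraries, as in 24.7% of all genes. In 25 of 26 all 3 MUT libraries lay above all 3 WT libraries, as in 23.3% of all genes.

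**Figure D2:**
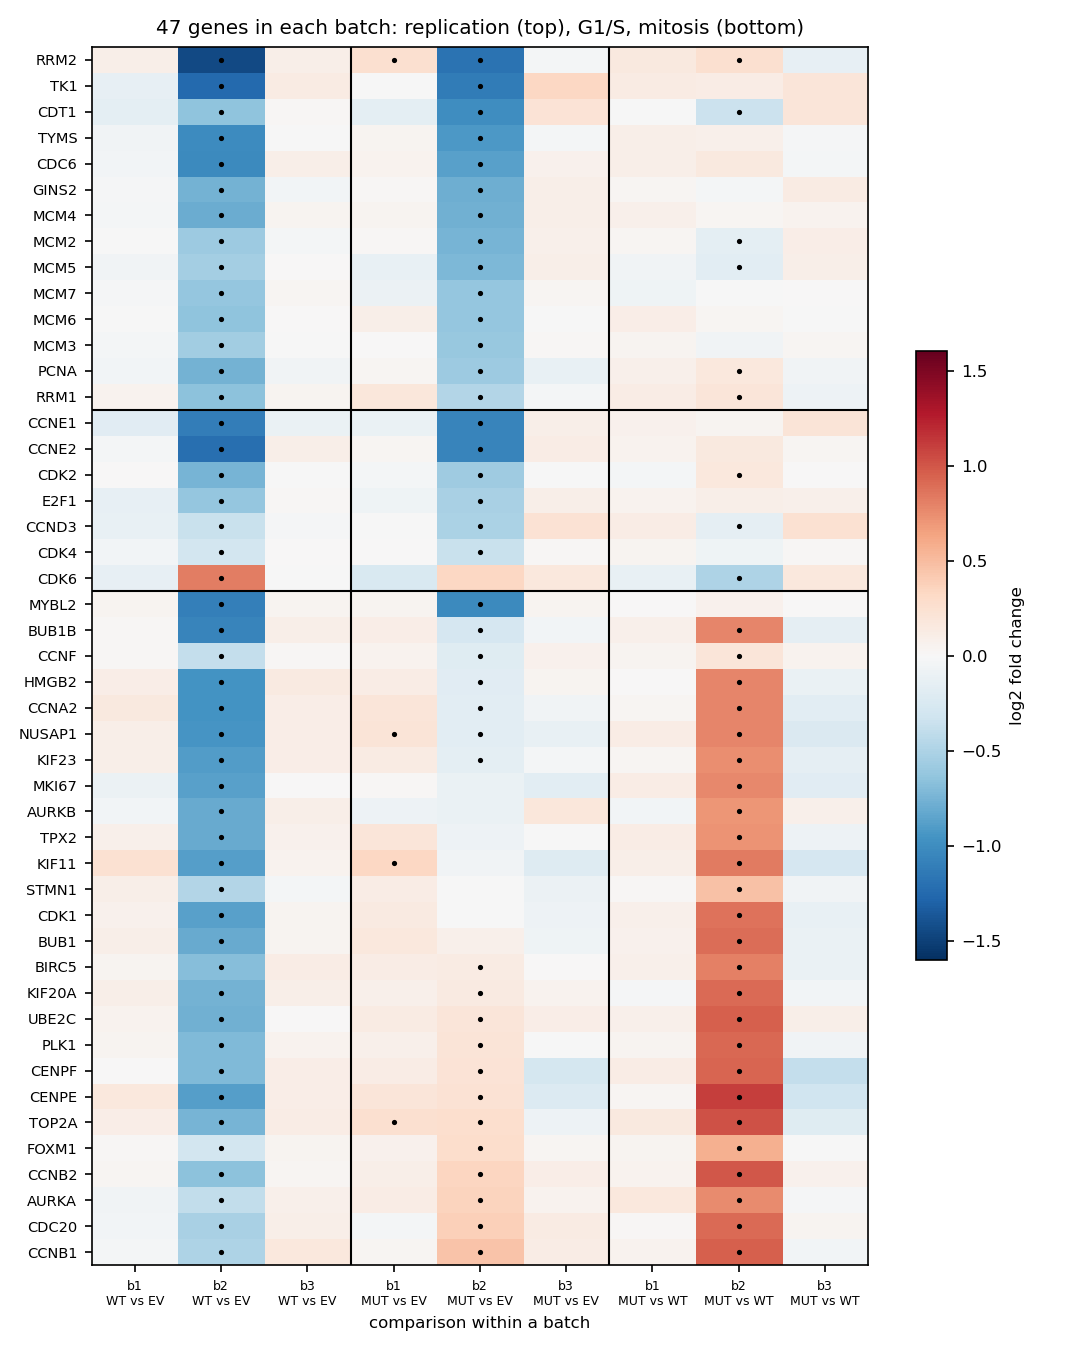
Log2 fold change (colour, blue lower and red higher) of 47 genes (rows, by role) in each medium comparison of each batch (columns, b1 to b3); a dot marks an adjusted p under 0.05 in edgeR. Columns of batches 1 and 3 are pale, with 4 dots in all, and in batch 2 the lower block turns from blue for WT vs EV to mostly pale or red for MUT vs EV.

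Among the replication genes, the widest fall was in RRM2, which encodes the small subunit of ribonucleotide reductase, the enzyme that makes deoxynucleotides. It stood at 238, 217 and 238 CPM in the EV libraries, 84.0, 86.3 and 84.7 in WT and 107, 97.7 and 99.5 in MUT. Every EV library lay above both other media, and WT lay below MUT without overlap. The log2 fold change (± SE) was -1.45 ± 0.05 for WT vs EV (adjusted p = 2.85e-13), -1.19 ± 0.05 for MUT vs EV (3.83e-12) and 0.26 ± 0.05 between the CEL media (0.000327). TYMS, thymidylate synthase, stood at 92.2, 89.2 and 95.4 CPM for EV, 46.0, 46.8 and 45.8 for WT and 49.3, 46.8 and 49.5 for MUT. By the fitted fold change, from which percentages of single genes are taken here, WT held 50.0% and MUT 52.7% of EV, with log2 fold changes of -1.0 ± 0.04 and -0.92 ± 0.04. The large reductase subunit gene RRM1 fell less, from 211, 193 and 203 CPM in EV to 130.2, 130.1 and 127 in WT and 151, 140.4 and 149 in MUT, and was higher in MUT than in WT (log2 fold change 0.19 ± 0.04, adjusted p = 0.00228). TK1, the salvage kinase for thymidine, ran at 15.8, 17.4 and 16.9 CPM for EV, 7.36, 6.56 and 7.30 for WT and 8.16, 7.58 and 7.26 for MUT.

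CDC6 and CDT1 load the MCM helicase onto origins. CDC6 stood at 39.6, 39.4 and 39.7 CPM for EV, 18.6, 21.2 and 18.8 for WT and 21.8, 22.1 and 20.8 for MUT, with a log2 fold change of -1.02 ± 0.06 for WT vs EV. CDT1 stood at 52.2, 60.2 and 58.5 CPM for EV, 36.3, 34.8 and 38.2 for WT and 27.6, 28.8 and 29.1 for MUT. CDT1 was the replication gene furthest below WT in MUT: -0.35 ± 0.06 (adjusted p = 0.000188) against 0.26 ± 0.05 for RRM2. The 3 higher and 3 lower of 14 replication genes between the CEL media are near the shares of all genes (16.8% and 16.4%). The 6 subunit genes of the MCM helicase moved within a narrower range. MCM4 fell from 314, 292 and 306 CPM in EV to 172, 175 and 179 in WT and 182, 176 and 177 in MUT, with log2 fold changes of -0.80 ± 0.04 and -0.76 ± 0.04. MCM2 stood at 293, 321 and 310.0 CPM for EV, 211, 197 and 213 for WT and 185, 188 and 180.1 for MUT. MCM2 and MCM5 were lower in MUT than in WT, with log2 fold changes of -0.16 ± 0.04 and -0.17 ± 0.05 (adjusted p = 0.00751 and 0.0186). The MCM5 call was lost without MUT library 1 (adjusted p = 0.0807) or WT library 3 (0.0995).

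MCM3, MCM4, MCM6 and MCM7 did not pass between the CEL media. MCM6 stood at 259, 251 and 256 CPM for EV, 167, 161 and 163 for WT and 168, 161 and 168 for MUT. GINS2, a subunit of the GINS complex that completes the active helicase, fell from 99.1, 98.2 and 108 CPM in EV to 59.8, 59.7 and 61.5 in WT and 59.8, 57.1 and 60.0 in MUT, with a log2 fold change of -0.78 ± 0.04 for MUT vs EV. PCNA fell from 376, 344 and 378 CPM in EV to 209, 220.0 and 223 in WT and 246, 238 and 247 in MUT. The log2 fold change of PCNA was -0.75 ± 0.04 in WT and -0.58 ± 0.04 in MUT, and the difference between the CEL media passed (0.17 ± 0.04, adjusted p = 0.00461). PCNA, RRM1 and RRM2 were the 3 of 14 replication genes higher in MUT than in WT, near the share of all genes (16.8%).

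Among the G1/S regulators the cyclin E genes, whose products activate CDK2, fell furthest. CCNE2 stood at 50.1, 45.3 and 48.1 CPM for EV, 18.9, 22.1 and 21.2 for WT and 23.5, 21.4 and 24.2 for MUT, and CCNE1 at 25.8, 23.2 and 24.5, 11.4, 10.8 and 11.9 and 12.1, 11.3 and 11.8 CPM. Their log2 fold changes were -1.21 ± 0.06 and -1.11 ± 0.06 in WT, and -1.05 ± 0.06 and -1.06 ± 0.06 in MUT. Neither gene passed in MUT against WT. E2F1 fell from 167, 177 and 178 CPM in EV to 111, 112 and 119 in WT and 118, 124 and 122 in MUT, with log2 fold changes of -0.62 ± 0.04 and -0.52 ± 0.04 against EV. CDK2 changed by -0.74 ± 0.05 in WT and -0.57 ± 0.05 in MUT. Of the regulators that fell, CDK4 and CCND3, the D-type cyclin gene that passed the level limit, moved least. CDK4 changed by -0.29 ± 0.04 and -0.36 ± 0.04, and CCND3 by -0.36 ± 0.05 and -0.50 ± 0.05, in MUT close to E2F1. CDK6, named here after its values were seen, went the other way, from 1.66, 1.28 and 1.62 CPM in EV to 2.71, 2.75 and 2.64 in WT and 2.21, 1.67 and 1.87 in MUT, with a rise of 0.82 ± 0.15 in WT (adjusted p = 0.000392). Between the CEL media 3 regulators passed, CDK2 (0.17 ± 0.05), CDK6 (-0.49 ± 0.15) and CCND3 (-0.14 ± 0.05). All 3 calls were fragile: without WT library 1 none of the 7 regulators passed, and without MUT library 3 only CDK2 did.

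The mitotic genes showed the contrast between the CEL media most clearly. TOP2A, the topoisomerase that untangles and compacts chromosomes, stood at 249, 231 and 244 CPM for EV, 145, 148 and 142 for WT and 307, 279 and 288 for MUT. The 3 media did not overlap, and MUT stood at 202% of WT by the fitted fold change. The log2 fold change of TOP2A came to -0.74 ± 0.04 in WT vs EV, 0.27 ± 0.04 for MUT vs EV (adjusted p = 3.7e-05) and 1.01 ± 0.04 between the CEL media (adjusted p = 2.07e-11). CCNB1 and CCNB2 encode B-type cyclins, which drive CDK1 into mitosis. CCNB1 ran at 41.1, 37.7 and 43.1 CPM for EV, 27.1, 29.8 and 29.8 for WT and 58.3, 53.7 and 55.2 for MUT. CCNB2 ran at 41.5, 38.5 and 40.5 CPM for EV, 25.3, 25.7 and 25.7 for WT and 52.5, 49.3 and 50.7 for MUT. In MUT both were above every EV library, by 0.46 ± 0.06 and 0.34 ± 0.05. CDK1 itself stood at 79.6, 67.9 and 79.1 CPM for EV, 39.8, 41.1 and 43.7 for WT and 78.8, 71.6 and 75.6 for MUT. It fell in WT (-0.87 ± 0.06), and in MUT it overlapped EV and did not pass (-6.37e-05 ± 0.06, adjusted p = 0.999).

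The kinases and the exit machinery followed. PLK1, the Polo kinase of spindle and cytokinesis, stood at 50.8, 52.2 and 53.9 CPM for EV, 32.3, 31.8 and 32.0 for WT and 58.5, 63.1 and 59.0 for MUT. AURKA, the centrosomal Aurora kinase, stood at 51.2, 46.2 and 49.1 CPM for EV, 36.2, 37.4 and 37.8 for WT and 62.9, 62.6 and 62.0 for MUT, a rise of 0.36 ± 0.05 for MUT vs EV. CDC20 activates the ligase that ends metaphase, and UBE2C charges it with ubiquitin. CDC20 went from 26.4, 27.8 and 26.9 CPM in EV to 18.5, 18.4 and 19.8 in WT and 34.2, 36.8 and 34.6 in MUT. UBE2C and the checkpoint kinase gene BUB1 were higher in MUT than in WT by 0.96 ± 0.05 and 0.89 ± 0.05. CENPF, of the kinetochore, ran at 61.7, 61.9 and 62.3 CPM for EV, 37.6, 36.8 and 39.4 for WT and 74.3, 70.4 and 70.9 for MUT. All of these genes had WT libraries at the bottom and MUT libraries on top.

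MKI67, the proliferation marker Ki-67, stood at 50.5, 53.6 and 49.9 CPM for EV, 27.6, 28.2 and 28.7 for WT and 49.6, 47.8 and 45.7 for MUT. WT was at 54.8% of EV (-0.87 ± 0.05), while MUT lay just below EV without overlap and did not pass (-0.10 ± 0.05, adjusted p = 0.0846). Under a stricter low-count filter, total library size or limma voom it did (adjusted p = 0.0492, 0.0303 and 0.0491). Another 6 mitotic genes fell in WT and fell by less in MUT: BUB1B, CCNA2, HMGB2, KIF23, NUSAP1 and CCNF. BUB1B, a spindle checkpoint gene, stood at 44.3, 40.4 and 40.5 CPM for EV, 20.6, 19.9 and 20.0 for WT and 34.1, 34.1 and 35.6 for MUT. HMGB2, a chromatin protein gene, stood at 152, 144 and 159 CPM for EV, 75.6, 80.7 and 79.6 for WT and 135, 128 and 139 for MUT. In these genes MUT lay between the other media.

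MYBL2 was the exception among the 26. It stood at 76.9, 86.7 and 91.7 CPM for EV, 40.4, 39.2 and 40.6 for WT and 40.3, 46.5 and 38.6 for MUT. WT held 47.0% and MUT 49.2% of EV, and the CEL media overlapped each other. The log2 fold change was -1.09 ± 0.07 in WT, -1.02 ± 0.07 in MUT and 0.07 ± 0.07 between them (adjusted p = 0.525); without MUT library 2 the last was -0.02. MYBL2 encodes B-MYB, which works with MuvB on mitotic promoters and is itself a known E2F target. FOXM1 and CCNF, named after their values were seen, fell least in WT among the mitotic genes (-0.29 ± 0.05 and -0.39 ± 0.05). FOXM1, the transcription factor of late mitotic genes, ran at 62.6, 63.3 and 65.0 CPM for EV, 49.8, 52.5 and 53.5 for WT and 75.1, 81.0 and 74.5 for MUT, higher in MUT than in WT by 0.57 ± 0.05. CCNF, cyclin F, differed between the CEL media by 0.20 ± 0.05.

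**Figure D3:**
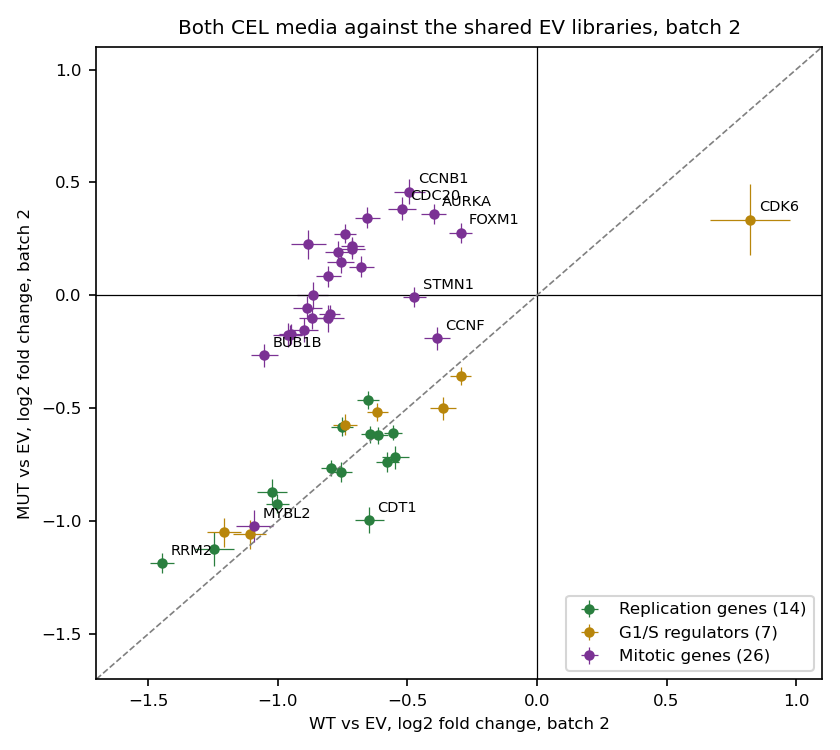
Log2 fold change in batch 2 of WT vs EV (horizontal) and MUT vs EV (vertical) for 47 genes, coloured by role, with standard errors; both comparisons share the 3 EV libraries, so points are not independent in the 2 directions. Most replication genes and G1/S regulators lie near the dashed line of equal change, with CDK6 and CDT1 below it and RRM2 above it. Mitotic genes lie above the line, CCNF by less than RRM2, and MYBL2 lies near it.

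Other measures also differed between the media in batch 2. The share of counts from mitochondrial genes was 4.80 to 5.25% in EV, 3.99 to 4.05% in WT and 4.89 to 5.41% in MUT. The summed HEK293 markers, almost entirely NEFM, ran from 3.63 to 4.29 CPM for EV, 7.45 to 8.20 for WT and 5.46 to 6.52 for MUT. The mesenchymal sum ran from 2.08 to 2.84 CPM for EV, 5.51 to 6.91 for WT and 5.84 to 6.87 for MUT, the duct sum, mostly KRT19, from 53.7 to 56.4, 54.9 to 61.1 and 38.4 to 43.6, and the acinar sum from 25.0 to 28.4, 21.4 to 22.6 and 21.3 to 23.4. The β-cell sum ran from 25857 to 28113 CPM for EV, 26961 to 27968 for WT and 22240 to 23467 for MUT. Library totals overlapped, at 33.7 to 39.5 M in EV, 34.1 to 34.5 M in WT and 35.0 to 40.2 M in MUT. The part of these in the changes of the module was not tested.

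The promoters of the 2 blocks differ in sequence. They are shown because the replication and mitotic genes moved apart in batch 2 and each block has a known promoter element. Windows of 250 bases before to 50 after the annotated start were taken from RefSeq (GRCh38.p14) and matched 37 of the 47 genes. AURKA, BIRC5, CCNE2, CDK2, FOXM1, HMGB2, MCM4, MCM5, TPX2 and UBE2C are not among them. For E2F sites, TTTCGCGC, TTTGGCGC, TTTCCCGC and TTTGCCGC were searched on both strands, and matches may overlap each other. In the 140 bases just upstream of the start, capitals below mark those matches in 5 replication genes, all taken from those with a match. Like these 5, all 14 replication genes fell in both CEL media. Here and below, for a gene with several starts the window with the most E2F and CHR matches was shown. The stretches are MCM6 chr2:135876444-135876583 (minus strand), PCNA chr20:5126623-5126762 (minus strand), TYMS chr18:657513-657652 (plus strand), CDT1 chr16:88803649-88803788 (plus strand) and GINS2 chr16:85688955-85689094 (minus strand), all upstream of the annotated start.
MCM6: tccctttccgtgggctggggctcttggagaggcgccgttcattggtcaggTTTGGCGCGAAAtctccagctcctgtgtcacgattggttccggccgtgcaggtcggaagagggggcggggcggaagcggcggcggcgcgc
PCNA: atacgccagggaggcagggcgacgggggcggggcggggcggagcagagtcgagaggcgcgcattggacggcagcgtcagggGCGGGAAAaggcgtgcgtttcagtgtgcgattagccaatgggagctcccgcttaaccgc
TYMS: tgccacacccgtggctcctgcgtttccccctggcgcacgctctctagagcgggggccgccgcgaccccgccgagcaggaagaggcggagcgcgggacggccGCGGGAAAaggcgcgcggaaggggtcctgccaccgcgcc
CDT1: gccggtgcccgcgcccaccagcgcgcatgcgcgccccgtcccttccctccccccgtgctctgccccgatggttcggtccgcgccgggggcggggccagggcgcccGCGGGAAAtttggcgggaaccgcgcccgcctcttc
GINS2: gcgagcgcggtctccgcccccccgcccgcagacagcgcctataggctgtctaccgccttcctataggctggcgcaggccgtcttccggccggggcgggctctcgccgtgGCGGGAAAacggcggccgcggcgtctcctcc

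For the mitotic genes the CHR element TTTGAA was searched on both strands, and capitals mark it below, with E2F matches also in capitals. The 5 genes shown were taken from those that hold a CHR match. In MUT against EV, CCNB2, CDC20 and PLK1 rose, and MKI67 and CDK1 did not pass. The stretches are CCNB2 chr15:59105006-59105145 (plus strand), CDC20 chr1:43358841-43358980 (plus strand), PLK1 chr16:23678749-23678888 (plus strand), MKI67 chr10:128126424-128126563 (minus strand) and CDK1 chr10:60778338-60778477 (plus strand). CDK1 alone of the 5 also holds an E2F match.
CCNB2: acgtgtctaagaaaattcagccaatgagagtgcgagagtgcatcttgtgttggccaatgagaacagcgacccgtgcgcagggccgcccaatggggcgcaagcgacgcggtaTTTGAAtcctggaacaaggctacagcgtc
CDC20: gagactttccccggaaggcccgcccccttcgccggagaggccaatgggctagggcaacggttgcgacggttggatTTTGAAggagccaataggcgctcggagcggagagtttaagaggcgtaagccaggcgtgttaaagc
PLK1: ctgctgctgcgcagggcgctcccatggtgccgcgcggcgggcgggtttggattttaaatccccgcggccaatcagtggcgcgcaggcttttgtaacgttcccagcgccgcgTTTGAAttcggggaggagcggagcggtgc
MKI67: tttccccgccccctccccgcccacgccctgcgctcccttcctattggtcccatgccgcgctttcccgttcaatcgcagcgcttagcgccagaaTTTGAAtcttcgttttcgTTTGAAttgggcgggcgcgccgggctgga
CDK1: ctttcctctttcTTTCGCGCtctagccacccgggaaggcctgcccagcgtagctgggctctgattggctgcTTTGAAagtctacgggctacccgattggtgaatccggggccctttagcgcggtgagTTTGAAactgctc

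The same stretch of MYBL2, the exception, lies at chr20:43666974-43667113 (plus strand). It has no capitals, since none of the exact strings searched occurs in it. Variants of these strings were not searched, so the stretch cannot be said to lack E2F or CHR sites.
MYBL2: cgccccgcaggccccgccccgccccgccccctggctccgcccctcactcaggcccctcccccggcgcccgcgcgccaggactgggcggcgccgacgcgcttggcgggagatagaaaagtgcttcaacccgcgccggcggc

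Counted by gene, 9 of 12 replication genes with a window (75.0%) held an E2F match, against 3 of 20 mitotic genes (15.0%) and 3.99% of 27305 genes. CHR was in 12 of 20 mitotic genes (60.0%) and 1 of 12 replication genes (8.33%), against 18.2% of all genes. CCAAT, the NF-Y box, was in 9 of 12 and 17 of 20 (75.0% and 85.0%), against 39.7%. E2F matches were in CDC6, CDT1, GINS2, MCM2, MCM3, MCM6, MCM7, PCNA and TYMS. RRM2, RRM1 and TK1 held no E2F match, and RRM2 fell furthest. AURKB, BUB1, CCNA2, CCNB1, CENPE, KIF20A, MYBL2 and STMN1 held no CHR match, and CCNB1 was above every EV library in MUT in batch 2. BUB1B, CCNF, KIF23 and NUSAP1 held CHR and fell in MUT against EV there. Taken by window, E2F letters were in 3.31% of 35116 windows, CHR in 15.2% and CCAAT in 34.6%. A match is a string of letters and not a measured site.

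**Figure D4:**
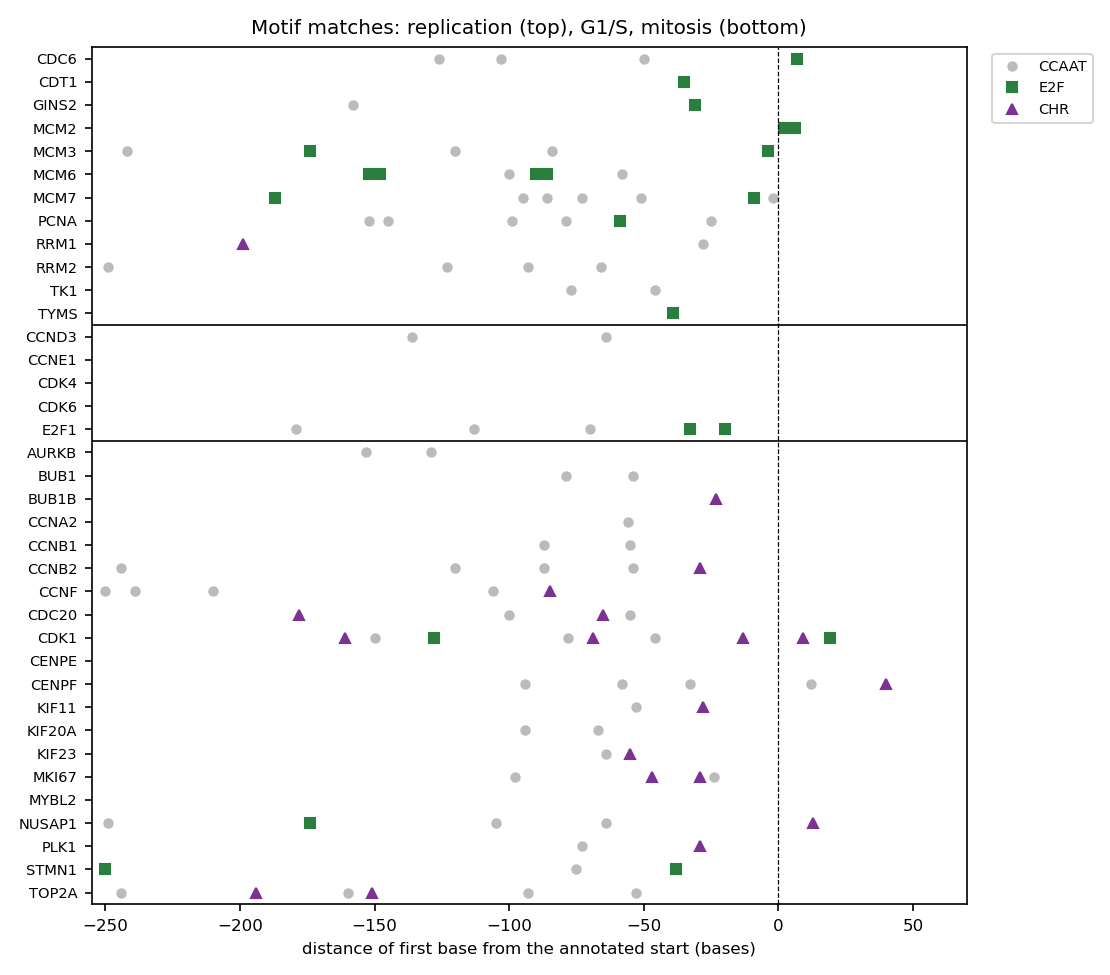
Distance of each motif match from the annotated start (horizontal axis, bases; 0 is the start) for the 37 genes with a RefSeq window (rows, by role); squares are E2F, triangles CHR and circles CCAAT, and genes with several starts carry the matches of each window. Squares lie mainly in the upper block of replication genes and triangles in the lower block of mitotic genes.

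Further genes of the same pathways, listed by role, were counted in batch 2. Of 59 other replication genes 57 fell in WT, where 19.3% of all genes did, and 54 fell and 2 rose in MUT, where 23.8% and 24.1% did, with medians of -0.67 and -0.50. The examples with the smallest p included UHRF1, which carries DNA methylation through replication (-1.25 ± 0.05 in WT, -0.99 ± 0.05 in MUT), and DTL, which targets CDT1 for degradation (-1.09 ± 0.05 and -1.06 ± 0.05). E2F7, a repressor of the E2F family, fell in WT (-1.24 ± 0.06), and CHAF1B, of the histone chaperone at the fork, fell in MUT (-0.92 ± 0.04). Both are given only where their p was among the smallest, not as changes in 1 medium alone. Between the CEL media 33 of the 59 were higher in MUT and 1 lower, where 16.8% and 16.4% of all genes were, against 3 and 3 of the 14 members, and DBF4, the activator of the kinase CDC7, had the smallest p (0.60 ± 0.06).

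Of 57 other mitotic genes all fell in WT (median -0.73), where 19.3% of all genes did. In MUT against EV 20 rose and 15 fell, and the share that fell is near the 23.8% of all genes. Between the CEL media 55 were higher in MUT (median 0.73), where 16.8% of all genes were. ASPM and HMMR, of the spindle poles, the kinase gene NEK2 and PRC1, of the central spindle, were higher in MUT than in WT by 1.26 ± 0.06, 1.03 ± 0.05, 1.24 ± 0.07 and 0.91 ± 0.05. Of the 15 that fell in MUT against EV, the 4 with the smallest p were KNTC1 (-0.71 ± 0.04), PKMYT1 (-0.94 ± 0.08), LMNB1 (-0.49 ± 0.04) and NCAPG (-0.51 ± 0.05). KNTC1 acts at the kinetochore, PKMYT1 holds back CDK1, LMNB1 forms the nuclear lamina and NCAPG is a condensin subunit. The windows of these lists held E2F letters in 22 of 50 other replication genes (44.0%) and 2 of 47 other mitotic genes (4.26%), and CHR in 5 of 50 (10.0%) and 33 of 47 (70.2%).

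Among 21 genes for cell cycle inhibitors, pocket proteins and their partners, 8 rose and 5 fell in WT, where 19.6% of all genes rose and 19.3% fell, and 12 rose and 3 fell in MUT, where 24.1% rose and 23.8% fell. CDKN1A, which encodes the CDK inhibitor p21, stood at 61.2 ± 1.50 CPM for EV, 128 ± 1.81 for WT and 99.2 ± 8.56 for MUT (mean ± SD, n = 3). It rose in both CEL media, by 1.07 ± 0.05 in WT and 0.70 ± 0.05 in MUT, and was lower in MUT than in WT (log2 fold change -0.37 ± 0.05, adjusted p = 3.1e-05). CDKN2B, which encodes p15, rose by 0.79 ± 0.05 and 0.61 ± 0.05. CDKN2C, which encodes p18, stood at 235 ± 2.14 CPM for EV, 269 ± 3.61 for WT and 378 ± 6.12 for MUT, and was higher in MUT than in WT by 0.50 ± 0.03. RBL1, the pocket protein p107 and an E2F target, fell in MUT (-0.57 ± 0.05), with its WT value not given here. CCNG2, cyclin G2, was higher in MUT than in WT by 0.64 ± 0.06. The inhibitor genes thus had no single direction between the CEL media.

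Few members were called in batches 1 and 3. In batch 3 none of the 47 members was called in any comparison by edgeR, where of 20390 genes 0.049% were for MUT vs EV, 1.22% between the CEL media and 0.00981% for WT vs EV. At an unadjusted p under 0.05 there were 10, 16 and 3 of the 47 members, beside 3055, 3727 and 1091 of the 20390 genes. DESeq2 called 1, 6 and 0 members, with no share over all genes given here. Leaving out WT library 1 gave 4 calls for MUT vs EV, and leaving out WT library 3 or MUT library 1 gave 6 and 1 between the CEL media, again without such a share. The sums in batch 3 were 101% and 101% of EV for replication genes and 104% and 96.9% for mitotic genes, in WT and MUT. RRM2 stood at 267, 270.1 and 274 CPM for EV, 319, 284 and 261 for WT and 272, 261 and 258 for MUT, and CCNB1 at 48.1, 48.1 and 49.7, 55.0, 52.8 and 55.8 and 54.9, 51.6 and 52.5 CPM. Between the CEL media 20 of 26 mitotic genes had values below 0 in batch 3 (median -0.09), and none passed. Over all 20390 genes, 9939 had values above 0 in this comparison (median -0.0057).

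In batch 1, 4 members rose in MUT against EV, where 1.4% of 20942 genes were called and 0.497% rose. They were RRM2 (0.25 ± 0.05), the spindle motor gene KIF11 (0.33 ± 0.07), TOP2A (0.25 ± 0.06) and the spindle gene NUSAP1 (0.21 ± 0.05), each with an adjusted p of 0.0462. RRM2 stood at 179, 187 and 188 CPM for EV, 204, 188, 201 and 194 for WT and 206, 239.6, 231 and 214 for MUT, so RRM2 was higher in MUT than in EV here and lower in batch 2. TOP2A stood at 353, 342 and 337 CPM for EV, 374, 345, 375 and 377 for WT and 397, 446, 438 and 376 for MUT. The count of 4 fell to 0 without EV library 2 or 4, MUT library 2 or 3, or WT library 1, 3 or 4, and rose to 12 without MUT library 4. It was also 0 where the dispersion was estimated without the robust setting (adjusted p = 0.0625 for each of the 4), an alternative chosen after seeing the data. No member was called in the other comparisons of batch 1 by edgeR, where 0.277% (MUT vs WT) and 0.0143% (WT vs EV) of genes were. At an unadjusted p under 0.05 there were 9 of 47 members in each, beside 3547 (MUT vs WT) and 2042 (WT vs EV) of the 20942 genes. DESeq2 called 2 and 0 members. No share over all genes is given here for DESeq2 or for the fits of batch 1 with a library left out. Without MUT library 4 edgeR called 2 between the CEL media. The sums in batch 1 were 98.6% and 103% of EV for replication genes and 104% and 111% for mitotic genes, in WT and MUT. Between the CEL media 24 of 26 mitotic genes had values above 0 (median 0.06), unlike in batch 3, beside 10259 of the 20942 genes. For MUT vs EV 24 of 26 did (median 0.12), beside 10280 of the 20942 genes.

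Whether a medium acted on a gene alike in every batch was tested by an interaction term. For WT vs EV it passed in all 47 members, where 23.2% of 22073 genes passed. For MUT vs EV it passed in all 14 replication genes, 6 of 7 G1/S regulators and 21 of 26 mitotic genes, where 42.4% of all genes did, and for MUT vs WT in 6, 2 and 24, where 27.1% did. For RRM2 the adjusted p was 8.17e-16 for WT vs EV and 2.39e-14 for MUT vs EV, and for TOP2A it was 4.65e-12 for MUT vs WT. Each medium has 1 set of libraries in each batch, so a response to the medium in batch 2 and a difference between sets of cultures cannot be told apart.

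The EV libraries also differed between batches, and those of batch 2 are the ones used in the comparisons above. Of EV batch 2 against EV batch 1, 37 of 47 members passed, where 56.2% of 22073 genes did. Of these, 10 replication genes were higher and 1 lower in batch 2, while 2 mitotic genes were higher and 19 lower, beside 30.2% of all genes higher and 26% lower. MKI67 stood at 164, 125 and 158 CPM in batch 1, 50.5, 53.6 and 49.9 in batch 2 and 98.8, 108 and 102 in batch 3. CENPF stood at 162, 134 and 158, 61.7, 61.9 and 62.3 and 112, 116 and 115 CPM. For both genes batch 1 was highest and batch 2 lowest, with no overlap. The log2 fold changes of batch 2 against batch 1 were -1.53 ± 0.09 for MKI67, -1.28 ± 0.09 for CENPF, -0.99 ± 0.09 for CENPE and -0.79 ± 0.05 for FOXM1. In the other direction MCM6 stood at 179, 189.7 and 177 CPM in batch 1, 259, 251 and 256 in batch 2 and 209, 213 and 219 in batch 3. GINS2, PCNA and MCM6 were higher in batch 2 than in batch 1, by 0.57 ± 0.04, 0.48 ± 0.04 and 0.49 ± 0.05. MCM7 was the replication gene lower in batch 2 (-0.10 ± 0.04, adjusted p = 0.0403), a call that was lost with no low-count filter (0.0548), without EV library 1 of batch 2 (0.172) and without EV library 4 of batch 1 (0.0638).

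E2F1 did not go with the replication genes across the EV libraries. It stood at 274, 253 and 261 CPM in batch 1, 167, 177 and 178 in batch 2 and 219, 217 and 207 in batch 3, a log2 fold change of -0.59 ± 0.05 for batch 2 against batch 1. CDKN1A was higher in EV libraries of batch 2, at 61.2 ± 1.50 CPM, than of batch 1 (38.9 ± 1.86) or batch 3 (29.1 ± 0.778). Of EV batch 3 against batch 2, 37 members passed, where 37.1% of genes did (18.2% higher and 18.9% lower): 22 mitotic genes were higher and none lower, and 1 replication gene was higher and 9 lower. MKI67 rose by 1.0 ± 0.09 and FOXM1 by 0.71 ± 0.05. Of EV batch 3 against batch 1, 28 members passed, where 45.5% of genes did (25.5% higher and 20.1% lower), with 7 replication genes higher and 2 lower and 7 mitotic genes higher and 6 lower. The largest were RRM2 (0.55 ± 0.06) and STMN1 (0.51 ± 0.05), higher in batch 3, and CCNE1 (-0.59 ± 0.06) and MKI67 (-0.53 ± 0.09), lower, apart from CDK6 at its low level (0.87 ± 0.20). The mitochondrial share of EV libraries was 7.08 to 8.28% in batch 1, 4.80 to 5.25% in batch 2 and 4.29 to 4.64% in batch 3, and its part was not tested. The mitotic to replication ratio of EV was 1.01 to 1.05 in batch 1, 0.714 to 0.742 in batch 2 and 1.02 to 1.03 in batch 3. The range over the 20 libraries of batches 1 and 3 was 0.964 to 1.16. In batch 2 the MUT libraries lay above that range and the EV and WT libraries below it.

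**Figure D5:**
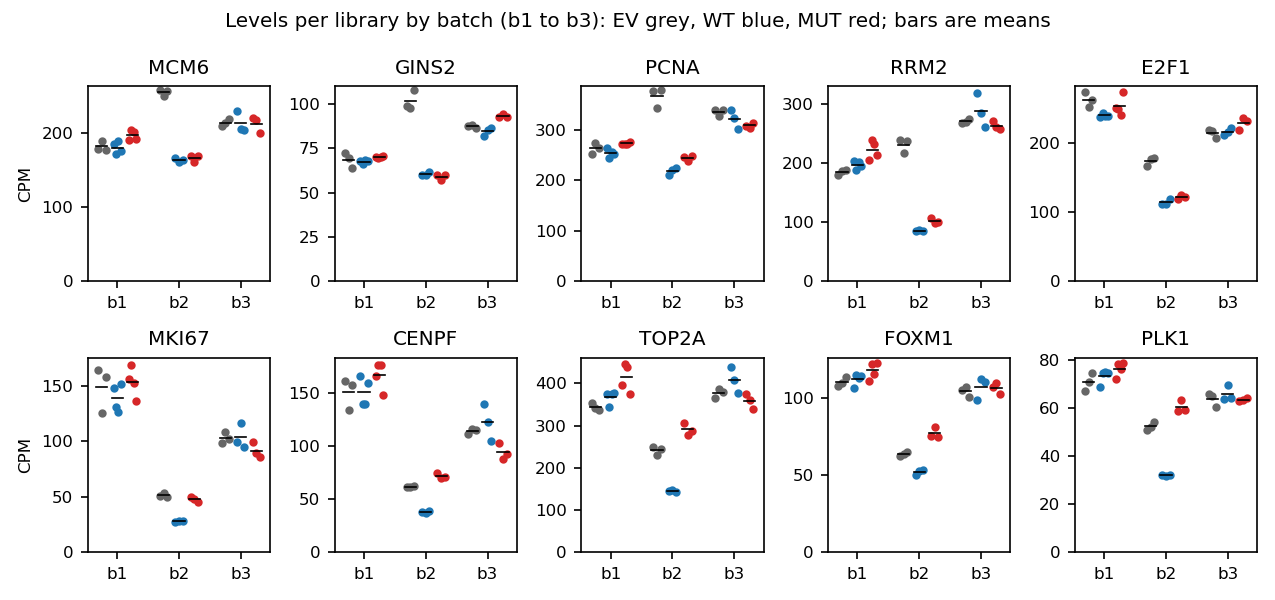
CPM (vertical axes, from 0) of 10 genes in each of the 29 libraries, by batch (b1 to b3) and medium (EV grey, WT blue, MUT red); bars are means. In batch 2 the EV libraries are high for MCM6 and GINS2 and low for MKI67, CENPF and FOXM1. There WT and MUT both lie below EV in the upper row from MCM6 to E2F1, with MUT above WT for PCNA and RRM2. In the lower row MUT lies near or above EV.

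Over all batches little of this passed. In the model with batch as a term, 2 members were called for MUT vs EV, both lower, where 5.2% of 21259 genes were called and 2.25% were lower: MCM7 (-0.23 ± 0.07, adjusted p = 0.0412) and MCM5 (-0.24 ± 0.07, 0.0489). Both rest on batch 2: without it MCM7 was at -0.03 (adjusted p = 0.803) and MCM5 at -0.01 (0.944). Leaving out any 1 EV or MUT library of batch 2 ended both calls, and of the 29 libraries 8 ended the MCM7 call and 21 the MCM5 call when left out. For MUT vs WT the pooled fit called AURKA (0.29 ± 0.06, adjusted p = 0.0218), where 0.884% of genes were called and 0.522% were higher. Without batch 2 it was at 0.10 (adjusted p = 0.234), and the call also ended without MUT library 1 or 3 or any WT library of batch 2. AURKA stood at 63.8, 65.1 and 64.3 CPM for EV, 63.4, 58.2, 65.4 and 60.6 for WT and 67.2, 70.2, 70.6 and 74.2 for MUT in batch 1, and at 53.0, 56.4 and 52.6, 58.7, 56.9 and 55.3 and 58.7, 56.3 and 53.8 CPM in batch 3. For WT vs EV edgeR called none, where 0.315% of genes were called. Here 30 of 47 members had an unadjusted p under 0.05, beside 2800 of 21259 genes, and DESeq2 called 7 members. Without batch 3 the pooled fit called 19 members for MUT vs EV, 14 between the CEL media and 14 for WT vs EV, and without batch 2 it called none in these comparisons. No share over all genes is given here for DESeq2 or for pooled fits that leave out a batch or library, so these counts cannot be set against one. Leaving out 1 library gave 0 to 7, 0 to 2 and 0 to 3 calls, the most without EV library 3 of batch 3 in the first and last and without MUT library 1 of batch 1 or WT library 2 or 3 of batch 3 in the second. The last also reached 3 without EV library 3 of batch 1. For MUT vs EV the pooled fit called 2 of 59 other replication genes and 1 of 57 other mitotic genes, all lower, near the 2.25% of all genes. Of the inhibitor list 2 of 21 were called, both higher, beside 628 of 21259 genes. The lower ones were POLE (-0.17 ± 0.04), the polymerase of the leading strand, LIG1 (-0.31 ± 0.09), the replication ligase, and KNTC1 (-0.27 ± 0.08). The higher ones were BTG1 (0.28 ± 0.06), which holds back proliferation, and CCNG1 (0.19 ± 0.05), cyclin G1. Without batch 2 none of the 5 passed: POLE was at -0.11 (adjusted p = 0.416), LIG1 at -0.06 (0.681), KNTC1 at -0.04 (0.799), BTG1 at 0.13 (0.281) and CCNG1 at 0.04 (0.810). Leaving out any 1 EV or MUT library of batch 2 also ended the calls of POLE, LIG1, KNTC1 and CCNG1, and EV library 2 or 3 or MUT library 1 of batch 2 ended that of BTG1. WEE1, a kinase that inhibits CDK1, was the 1 of 57 other mitotic genes that passed for MUT vs WT (0.18 ± 0.04). CDKN1C, which encodes p57, was the 1 of 21 genes of the inhibitor list that passed for WT vs EV (-0.37 ± 0.06). Without batch 1 neither passed (adjusted p = 0.0791 and 0.0613), and CDKN1C did not without batch 2 (0.147).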

How the data were processed

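The 29 EndoC-βH1 samples gave polyadenylated RNA that was sequenced as paired reads from a stranded kit, per the labels' protocols. Estimated counts for each Ensembl gene were deposited, made by the authors with fastp and kallisto per the submitters' processing notes. Their versions, the genome build, the annotation and how transcripts became genes are not given here. Kallisto divides reads between similar transcripts, so genes with pseudogene copies are less certain. None of the 47 members had an entry of identical values.

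Before testing, estimated counts as deposited were rounded, and symbols matched by Ensembl identifier. Entries without a symbol held 2.69% of counts. Groups, batches and replicate numbers came from the labels. In batch 1 the number of EV library 2 does not follow on from its neighbours, and its label was kept. Genes of low count left the fits by filterByExpr and libraries scaled by TMM. Tests were edgeR 4.0.16 quasi-likelihood tests with robust dispersion (limma 3.58.1, R 4.3.3) and Benjamini-Hochberg adjustment over all genes tested, with calls at 0.05. Pooled fits had medium and batch as terms (24 residual degrees of freedom). Each batch was also fitted alone, and interactions and EV batch differences came from 9 means of batch and medium (20 degrees of freedom). The standard error is the log2 fold change divided by the square root of F. CPM were TMM-scaled. Exonic lengths were those of all exons of a gene in GENCODE 29, joined where they overlap. The scripts' tests were checked on simulated data. Figures used matplotlib 3.10.9.

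The members, roles and pathway lists were chosen with earlier results of these data known. Members may all be named with levels. Test values are for up to 6 members with the smallest p per role and comparison among those that passed, for MCM2, MCM5, MCM7, PCNA, CDK4, MKI67, TOP2A and CDK1 always, and for up to 4 pathway genes per role. Exceptions are said to be named after their values were seen. Alternatives were DESeq2 (1.42.0), its size factors, total library size, no filter or at least 1 CPM in 9 libraries (3 within a batch), voom with quality weights, a replicate block, no batch term, 2 groups only, summed profiles and leaving out each batch or library. Libraries of 1 batch and medium were no copies of each other (chi-square per gene 2.83 to 18.2 over 33 pairs).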

Additional observations from a re-analysis of the deposited data

Results flagged for a closer look

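The medium effect differed between the batches by the interaction test in most members. For MUT vs EV it passed in 14 replication genes, 6 G1/S regulators and 21 mitotic genes, where 42.4% of all genes passed. For MUT vs WT it passed in 6, 2 and 24, where 27.1% did, so that 2 of 7 regulators is near that share, and for WT vs EV in 14, 7 and 26, where 23.2% did.

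Of 250 groups of libraries examined, 10 held 1 library far from its neighbours, where chance gives about 1 in 20. In batch 1 these were, among MUT libraries, MCM3 at 288 CPM in library 3, PCNA at 276 and CDT1 at 56.7 in library 4, and BIRC5 at 46.1 in library 1. Among WT libraries of batch 1 they were CCNE2 at 41.6, TOP2A at 345 and KIF11 at 65.6 CPM in library 2, and PLK1 at 68.5 in library 1. Over all batches they were CCND3 at 56.2 CPM in WT library 3 of batch 3 and CCNB2 at 44.9 in MUT library 1 of batch 1. None of these libraries belongs to batch 2, but this says little about that batch. Groups of 3 libraries were too small for the rule, so no medium of batch 2 was examined on its own. Its libraries entered only with those of the other batches.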

How the results depend on the processing

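The counts of called members in batch 2 (47 in WT vs EV, 39 in MUT vs EV, 34 between the CEL media), of members with an interaction, and of members that differed between EV batches stayed within 1.5 times under every alternative run, and leaving out 1 library gave 47, 36 to 39 and 31 to 34 in batch 2. Directions of the replication and mitotic genes in batch 2 were also checked under each scaling: all 14 replication genes fell in both CEL media, and 10 to 12 mitotic genes rose and 6 to 9 fell for MUT vs EV.

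The small counts moved. Pooled MUT vs EV (2) gave 10 with DESeq2, 4 with the stricter filter, 4 without batch 1, 19 without batch 3, and 0 with 2 groups only, no batch term, no filter, the replicate block, summed profiles, voom or without batch 2, and 0 to 7 without 1 library. Pooled MUT vs WT (1) gave 6 with DESeq2, 3 without robust dispersion, 14 without batch 3, and 0 with no batch term, no filter, the replicate block, summed profiles, or without batch 1 or 2, and 0 to 2 without 1 library. Pooled WT vs EV (0) gave 7 with DESeq2, 1 without robust dispersion, 14 without batch 3 and 0 to 3 without 1 library. Batch 1 MUT vs EV (4) gave 9 from the 9 means of all libraries, 8 with DESeq2, 11 with voom, 0 without robust dispersion, 0 with the replicate block and 0 to 12 without 1 library. Batch 1 MUT vs WT (0) gave 4 from the 9 means, 2 with DESeq2 and 0 to 2 without 1 library. Batch 3 MUT vs EV (0) gave 1 from the 9 means, 1 with DESeq2, 2 with no filter, 3 with voom and 0 to 4 without 1 library. Batch 3 MUT vs WT (0) gave 5 from the 9 means, 6 with DESeq2, 6 with no filter, 5 with voom, 1 with the replicate block and 0 to 6 without 1 library. Shares over all genes are not given here for these alternatives. The cause was not tested beyond what each alternative leaves out.

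CDK1 in MUT vs EV of batch 2, near 0 and not called, changed sign with DESeq2 (0.00164), its size factors (0.00148) and the replicate block (0.00203), and lay at 0.0383, 0.0346, 0.0302, 0.00088, 0.000783 and 0.000787 without EV library 1, EV 3, MUT 2, WT 1, WT 2 and WT 3. MYBL2 in MUT vs WT changed sign without MUT library 2 (-0.0197). With the replicate block the counts in batch 2 were 47, 39 and 34, and the interaction counts 47, 42 and 31 in the same order, against 47, 41 and 32. Correlations between libraries that share a number within a batch were low: 3 of 28 pairs were over 0.1 (-0.0667 to 0.142). Yet 17 of 29 libraries correlated best with their own number, a hint from the data and not the design. How many would do so without a link was not worked out, and whether equal numbers belong together was not tested. The block is nested in batch, so it gives no EV difference between batches. Dispersion without the robust setting was chosen after seeing the data. Arms of 2 libraries after leaving 1 out borrow the spread of the others.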
